A study of Mus musculus with 6 samples.

Results

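The genes described are those of the mitochondrial ribosomal proteins in EO771 cells, a mouse mammary carcinoma line. They were chosen by symbol: every entry named Mrpl or Mrps followed by a number and at most 1 letter, which gave 78 of the 49523 symbols in the count table, 49 of the large subunit (Mrpl) and 29 of the small subunit (Mrps). The samples are 6 RNA-seq libraries, 3 of cells labelled cancer stem cells (CSC) and 3 of cells labelled non-CSC, all of the EO771 line and with no other treatment or genotype in the labels. How CSC were separated from the line, and whether replicates are independent cultures, is not in the labels; p-values therefore reflect the spread among these 6 libraries, and that spread may be technical. The values are read counts per gene, printed as CPM, that is, scaled to a common library size. The CSC and non-CSC groups differed throughout the transcriptome: of 17630 genes tested, edgeR's quasi-likelihood test called 5894 higher in CSC and 5838 lower, with 0.05 as the limit for the adjusted p.

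Mitochondria keep their own ribosome, which translates the few proteins encoded in mitochondrial DNA, all of them core subunits of the respiratory chain and the ATP synthase. The ribosomal RNAs come from mitochondrial DNA, while every protein of the particle is encoded in the nucleus, made in the cytosol and imported. The small subunit reads the messenger RNA at the decoding centre, and the large subunit joins amino acids and lets the new chain out through an exit tunnel held against the inner membrane. Some members descend from bacterial ribosomal proteins, and others have no bacterial counterpart.

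Expression of the carcinoma line was checked with marker genes. Of 9 epithelial carcinoma markers 5 were higher in CSC and 2 lower, and the summed level was 3130 to 3280 CPM in non-CSC and 3860 to 4030 CPM in CSC. The keratins were abundant in both groups: Krt7 rose from 502 to 1057 CPM, Krt8 from 715 to 863 CPM and Krt19 from 657 to 734 CPM, and Krt18 was at 1255 and 1267 CPM. Epcam fell from 21.3 to 10.2 CPM and Cldn4 from 5.66 to 1.34 CPM, and the epithelial cadherin Cdh1 was at 0.952 and 0.752 CPM. Of 9 tested stem cell markers 4 were higher and 4 lower, with a median log2 fold change of -0.04. The higher ones were Cd44, Cd24a, Aldh1a1 and Lgr5, and the lower ones Sox9, Itga6, Procr and Itgb1. Of 8 leukocyte markers, Adgre1 and Cd3e were at 0 in all libraries and Ptprc was at 0.0864 and 0.152 CPM, but Itgam rose from 0.741 to 10.2 CPM and Csf1r from 1.86 to 8.06 CPM, while Cd68 fell from 25.4 to 17.8 CPM. The summed level of the list was 27.3 to 29.6 CPM in non-CSC and 35.6 to 37.2 CPM in CSC. Of 6 fibroblast markers Lum was at 0, while Dcn rose from 567 to 1212 CPM and carried nearly all of the summed level of 555 to 589 CPM in non-CSC and 1200 to 1240 CPM in CSC. The 5 endothelial markers summed to under 1 CPM in every library, with Tek and Emcn at 0. The part of these shifts in the results below was not tested. In bulk RNA, fewer cells of a type and less RNA per cell cannot be told apart.

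Stretches of DNA just upstream of 5 members are printed here as chosen cases. Of these, 4 hold the core of the site bound by ETS factors such as GABP (CCGGAAG) or that of nuclear respiratory factor 1 (GCGCATGC), both known regulators of nuclear genes for mitochondrial proteins, and most members lack each word. The Mrps12 stretch holds neither and is shown for the gene with the largest rise. Each is the exon-free run upstream of the annotated start, 5′ to 3′ on the strand of the gene, from RefSeq (GRCm38.p6), with motif letters in capitals. For Mrps12 the capitals mark CCAAT boxes, which were looked for after the sequence had been seen.
Mrps12 (chr7:28741822-28741991, minus strand; CCAAT): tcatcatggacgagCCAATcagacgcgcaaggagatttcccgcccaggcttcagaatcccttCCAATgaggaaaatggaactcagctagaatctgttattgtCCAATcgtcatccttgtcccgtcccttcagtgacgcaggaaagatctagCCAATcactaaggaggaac
Mrpl43 (chr19:45006443-45006557, minus strand; CCGGAAG): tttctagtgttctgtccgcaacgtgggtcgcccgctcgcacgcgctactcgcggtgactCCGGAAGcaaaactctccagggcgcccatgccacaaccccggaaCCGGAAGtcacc
Mrps18a (chr17:46110754-46110985, plus strand; CCGGAAG): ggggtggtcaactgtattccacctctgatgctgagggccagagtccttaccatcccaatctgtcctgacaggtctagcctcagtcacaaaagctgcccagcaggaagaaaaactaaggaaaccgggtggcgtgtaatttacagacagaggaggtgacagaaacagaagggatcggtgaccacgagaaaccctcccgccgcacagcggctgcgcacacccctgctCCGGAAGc
Mrpl34 (chr8:71464676-71464925, plus strand; CCGGAAG): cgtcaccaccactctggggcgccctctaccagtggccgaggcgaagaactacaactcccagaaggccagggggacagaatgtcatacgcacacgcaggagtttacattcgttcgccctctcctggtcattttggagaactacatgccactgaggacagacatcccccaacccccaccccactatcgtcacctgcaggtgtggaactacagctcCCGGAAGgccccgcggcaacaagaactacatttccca
Mrpl10 (chr11:97041408-97041559, plus strand; the reverse complement of GCGCATGC): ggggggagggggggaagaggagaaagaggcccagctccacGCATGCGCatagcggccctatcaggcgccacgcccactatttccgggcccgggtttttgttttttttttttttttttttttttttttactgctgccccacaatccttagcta
Among the other 4 genes, Mrpl43, Mrps18a and Mrpl10 fell, and Mrpl34 had the smallest difference of all.

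All 78 members were expressed and passed the filter on low counts, with 166 to 5595 reads per gene and library. Most of the members that changed were lower in CSC. In CSC 40 members were lower, 15 were higher and 23 were not called, and the median of their log2 fold changes was -0.15. Over all genes tested, 33.1% were called lower and 33.4% higher, with a median of 0.01. Over the 10030 protein-coding genes with a mean of at least 5 CPM, 43.3% were called lower and 33.5% higher, with a median of -0.05. The members' own shares were 51.3% lower and 19.2% higher; since the set was proposed with this comparison known, nothing is read from the gap between the shares. By at least 1.2-fold, 29 members fell and 6 rose, beside 24.7% and 26.6% of all genes, and Mrpl47 was the only member past 2-fold. The libraries of the groups did not overlap for 57 of 78 members, beside 69.3% of all genes tested. The count of rises was less stable than that of falls. With plain library-size scaling 22 members were higher and 35 lower, with upper-quartile scaling 22 and 36, and without CSC replicate 1 the counts were 9 and 41.

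**Figure D1:**
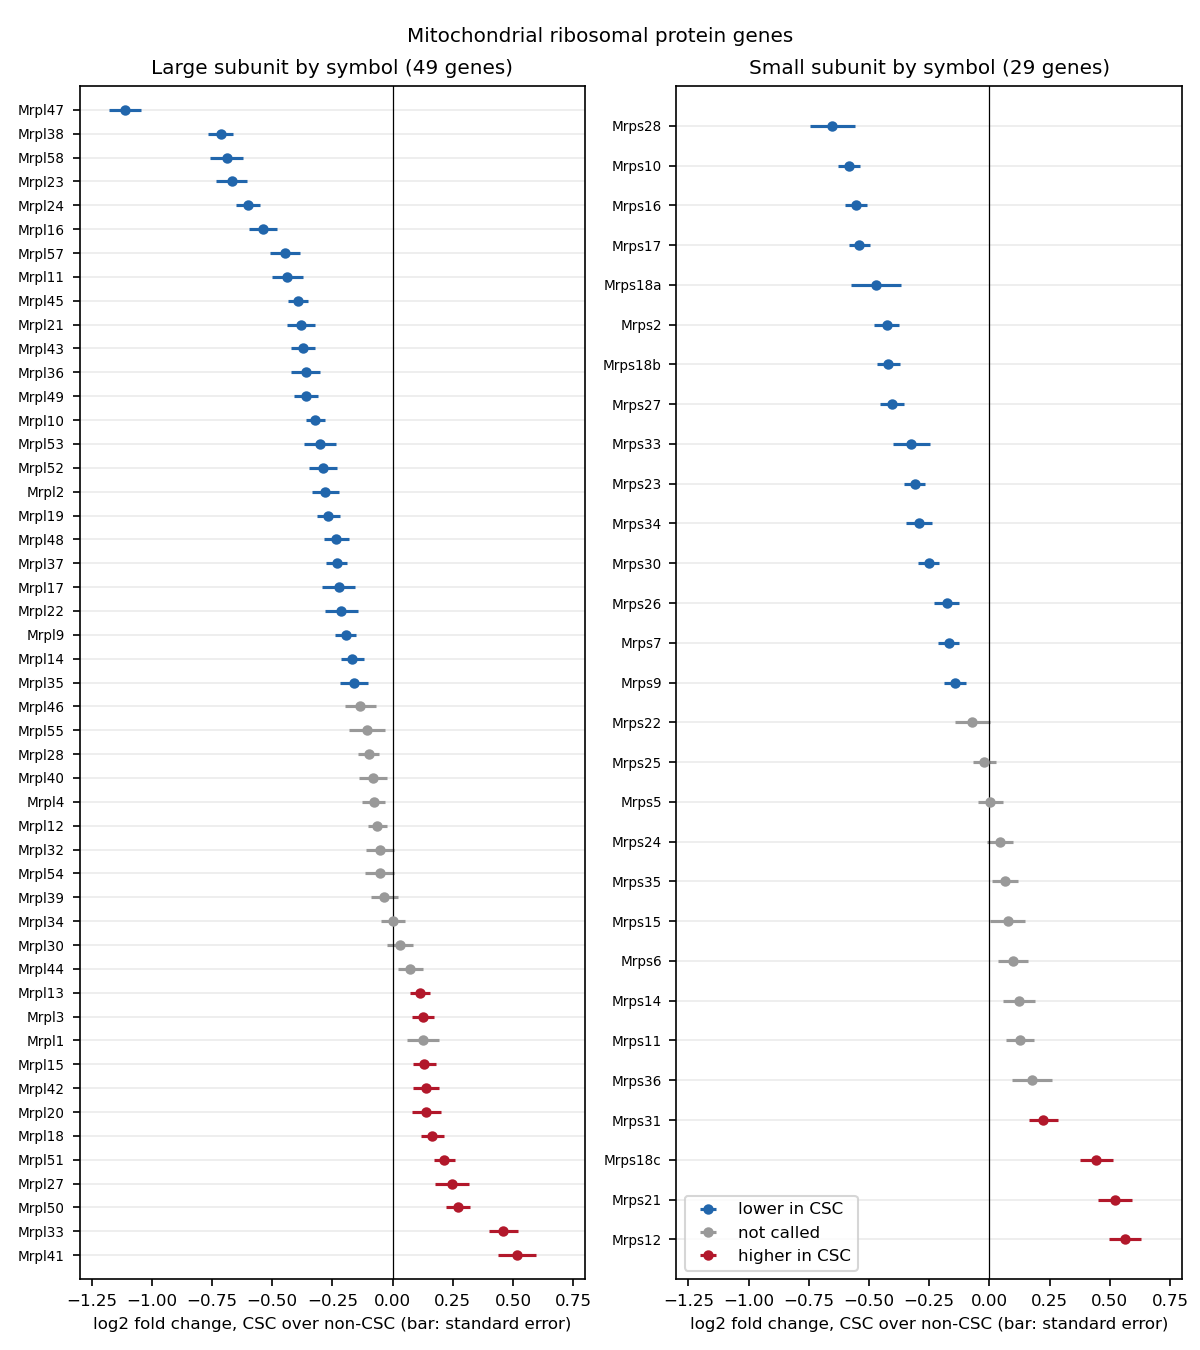
Log2 fold change of each of the 78 members, CSC over non-CSC, with its standard error as a bar, for the large subunit on the left and the small subunit on the right. Blue points are lower in CSC, red points higher and grey points not called; Mrpl47 lies farthest to the left at -1.11 and Mrps12 farthest to the right at 0.56.

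The large subunit had 25 members lower, 11 higher and 13 not called, with a median of -0.16 and a range from -1.11 to 0.52. The 4 largest falls, of Mrpl47, Mrpl38, Mrpl58 and Mrpl23, were all in this subunit. Its count of rises was 5 without CSC replicate 1, 7 without CSC replicate 2 and 6 without non-CSC replicate 1. The small subunit had 15 members lower, 4 higher and 10 not called, with a median of -0.14 and a range from -0.65 to 0.56. The large subunit median minus that of the small subunit was -0.02, with the GC content and length offset it was 0.01 and with the chromosome offset 0.08, so its sign depends on the processing. The difference was not tested.

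Mrpl47 fell the most. It encodes uL29m, the counterpart of a bacterial protein at the rim of the exit tunnel, and lies at chr3:32727497-32736755. Its level was 23.2, 22.2 and 23.5 CPM in the non-CSC libraries and 10.6, 11.3 and 9.93 CPM in the CSC libraries. Each CSC library was thus under every non-CSC library by a wide margin. The log2 fold change was -1.11 (SE 0.0648, adjusted p = 5.06e-13, n = 3 and 3, edgeR), a 2.16-fold fall. Of its exon bases 24.2% overlap Actl6a and Ndufb5 on the other strand, and since the strand setting of the counting is unknown, reads there cannot be assigned.

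Other proteins sit around the exit tunnel, a place assigned to members after the values were seen. Of 7 members placed there, 6 fell (Mrpl17, Mrpl22, Mrpl23, Mrpl24, Mrpl45 and Mrpl47), Mrpl32 at -0.05 did not pass the test, and the median was -0.39. Of all genes tested 33.1% were called lower, and of expressed protein-coding genes 43.3%. Mrpl23 (uL23m, chr7:142532467-142540747) was at 34.2, 31.1 and 34.5 CPM in non-CSC and 22.9, 21.2 and 18.8 CPM in CSC. The groups did not overlap, and the log2 fold change was -0.67 (SE 0.0649, adjusted p = 8.07e-09, edgeR). A pseudogene, Mrpl23-ps1, holds 66.7% of the 50-base words of its transcript and moved alike, with 106, 94 and 95 reads in non-CSC and 55, 47 and 37 in CSC, so the split of reads between them is uncertain. Mrpl24 (uL24m) went from 45.3 ± 2.72 CPM in non-CSC to 29.9 ± 0.524 CPM in CSC (SD, n = 3), a log2 fold change of -0.60. Of the exon bases of Mrpl24 26.3% overlap Rrnad1 on the other strand. Mrpl45, which holds the ribosome to the inner membrane, went from 69.8 ± 1.61 to 53.1 ± 0.492 CPM, a log2 fold change of -0.39. For Mrpl17, at 162 ± 15.8 and 138 ± 7.40 CPM, and Mrpl22, at 26.3 ± 2.42 and 22.7 ± 1.83 CPM, the adjusted p values were 0.0180 and 0.0107 (edgeR) but the groups overlapped, and these calls held in 14 and 15 of the 18 other fits.

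The central protuberance, the crown of the large subunit, held the next largest falls. Mrpl38, a protein with no bacterial counterpart (chr11:116131817-116138868), was at 58.0, 58.3 and 61.4 CPM in non-CSC and 38.5, 33.6 and 36.3 CPM in CSC. No other gene's exons overlap it, and the CSC libraries were all lower. Its log2 fold change was -0.71 (SE 0.0504, adjusted p = 1.58e-11, edgeR). Mrpl58, also known as ICT1, is a hydrolase that frees peptides from stalled ribosomes and is built into the particle. It was at 47.9, 39.8 and 41.6 CPM in non-CSC and 26.4, 28.8 and 24.9 CPM in CSC. Its log2 fold change was -0.69 (SE 0.0687, adjusted p = 1.27e-07, edgeR). Of the other 4 members placed there, Mrpl48 fell by 0.23 and Mrpl18 rose by 0.16 on the log2 scale, while Mrpl40 at -0.08 and Mrpl46 at -0.13 did not pass the test.

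The stalk recruits translation factors to the ribosome. Its members Mrpl10 and Mrpl11 fell, from 83.7 ± 2.22 to 67.0 ± 1.23 CPM and from 40.0 ± 4.22 to 29.5 ± 1.21 CPM, with log2 fold changes of -0.32 and -0.44. Mrpl12, which is also known to bind the mitochondrial RNA polymerase, was at 114 ± 4.94 CPM in non-CSC and 109 ± 1.92 CPM in CSC, with overlapping groups and an adjusted p of 0.158 (edgeR). Per kilobase of the longest transcript, Mrpl12 had the highest level of the set, at 84.7 CPM per kb. With the median transcript length Mrpl17, Mrpl30, Mrps21 and Mrps23 were above it.

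In the small subunit, Mrps28, Mrps10 and Mrps16, all counterparts of bacterial proteins, fell the most. Mrps28 (chr3:8802146-8923857) was at 10.6, 11.6 and 10.04 CPM in non-CSC and 7.08, 7.67 and 5.72 CPM in CSC, a log2 fold change of -0.65 (SE 0.0935, adjusted p = 2.26e-06, edgeR). Mrps10 went from 57.1 ± 1.24 to 38.1 ± 1.56 CPM (log2 fold change -0.58), and 22.6% of its transcript words occur in another transcript. Mrps16 went from 57.5 ± 1.95 to 39.1 ± 1.14 CPM (log2 fold change -0.56), with adjusted p = 2.68e-10 (edgeR). In all 3 genes the CSC and non-CSC libraries were apart.

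Mrps12 rose the most of all members. It encodes uS12m, the protein that lines the decoding centre, and lies at chr7:28739641-28741821. It was at 12.5, 11.0 and 11.7 CPM in non-CSC and 17.9, 17.4 and 16.8 CPM in CSC. All CSC libraries were above all non-CSC libraries, with a log2 fold change of 0.56 (SE 0.0661, adjusted p = 9.45e-08, edgeR), or 1.48-fold. No exon of another gene overlaps it. Mrps21 (bS21m) was at 34.3, 32.2 and 31.4 CPM in non-CSC and 48.1, 51.6 and 40.9 CPM in CSC, and its log2 fold change was 0.52 (adjusted p = 1.35e-05, edgeR). Its CSC libraries spread more widely than its non-CSC libraries but did not reach them. Transcript words of Mrps21 are shared with Gm6181 for 13.7%. Mrps31, which has no bacterial counterpart, rose from 14.0 ± 0.300 to 16.3 ± 0.447 CPM, a log2 fold change of 0.22.

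In the large subunit the largest rises were Mrpl41, Mrpl33, Mrpl50 and Mrpl27. Mrpl41, which has no bacterial counterpart, was at 9.05, 9.95 and 8.35 CPM in non-CSC and 14.2, 12.2 and 12.8 CPM in CSC, a log2 fold change of 0.52 (SE 0.0795, adjusted p = 5.09e-06, edgeR). Mrpl33 (bL33m) was at 29.4, 28.0 and 29.6 CPM and 40.9, 43.0 and 35.9 CPM, a log2 fold change of 0.46. Both genes had every CSC library above every non-CSC library. Transcript words of Mrpl33 are shared with Gm43809 for 30.3%, and those of Mrpl41 with Gm6434 for 13.8%. Mrpl50 rose from 31.0 ± 1.66 to 37.4 ± 0.710 CPM (log2 fold change 0.27). Mrpl27, a protein next to the peptidyl transferase centre, rose from 23.1 ± 2.03 to 27.4 ± 2.44 CPM (log2 fold change 0.25, adjusted p = 0.00416, edgeR), with groups that overlapped. The remaining 7 large subunit rises lay between 0.11 and 0.22.

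**Figure D2:**
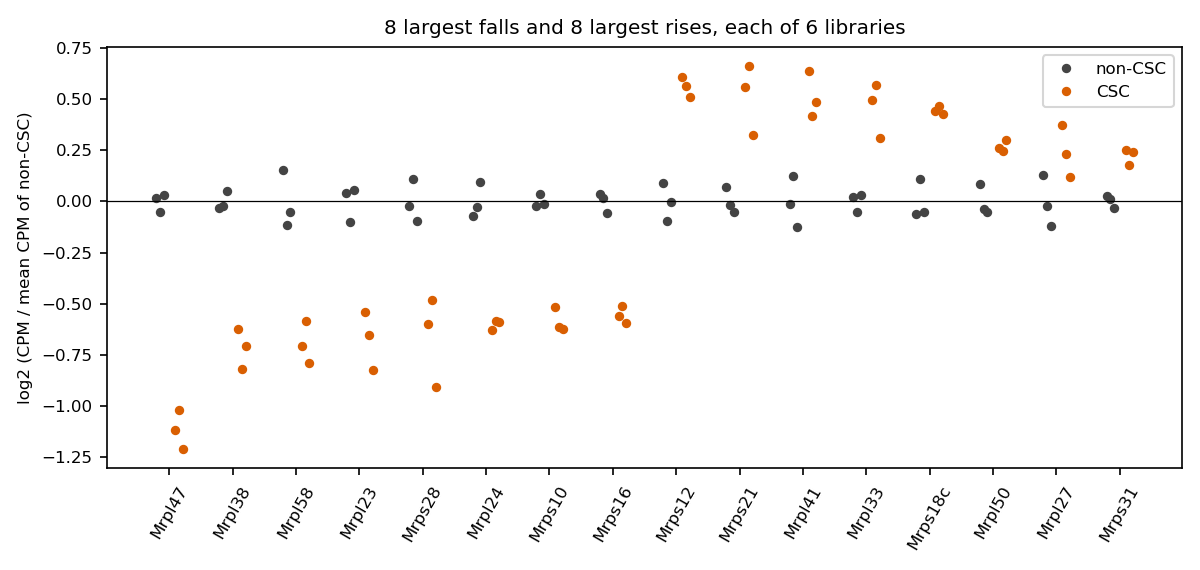
Level of the 8 members with the largest falls and the 8 with the largest rises in each of the 6 libraries, as log2 of CPM over the mean CPM of the non-CSC libraries; grey points are non-CSC and orange points CSC. The CSC points of Mrpl47 lie lowest, and the groups are apart for every gene shown except Mrpl27.

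The Mrps18 genes are a family of 3 paralogs that descend from the same bacterial protein, and they did not move alike. Mrps18c (bS18m), which keeps the ancestral place in the small subunit, was at 10.2, 11.5 and 10.2 CPM in non-CSC and 14.4, 14.7 and 14.3 CPM in CSC. It rose by 0.44 on the log2 scale (SE 0.0687, adjusted p = 5.32e-06, edgeR). Mrps18b (mS40), elsewhere in the small subunit, was at 50.04, 51.6 and 51.7 CPM in non-CSC and 39.5, 38.9 and 36.4 CPM in CSC, a log2 fold change of -0.42 (adjusted p = 3.91e-08, edgeR). Mrps18a (mL66), which despite its symbol sits in the large subunit, was at 56.6, 46.2 and 46.1 CPM in non-CSC and 37.4, 38.0 and 31.8 CPM in CSC, a log2 fold change of -0.47 (SE 0.103, adjusted p = 0.00490, edgeR). Both Mrps18a and Mrps18b were thus lower in every CSC library, and Mrps18c higher in every CSC library. A test of the differences between the paralogs was not made. Of exon bases, 23.2% of Mrps18c and 30.5% of Mrps18b overlap other genes, so these values carry a counting limit.

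Other symbols also differ from the place of the protein. Mrps30 (mL65), a large subunit protein, fell from 65.3 ± 2.76 to 54.8 ± 0.924 CPM, a log2 fold change of -0.25. Mrps36, since assigned to the oxoglutarate dehydrogenase complex and not to the ribosome, was at 8.26 ± 0.388 and 9.33 ± 0.800 CPM, with a log2 fold change of 0.18 and an adjusted p of 0.0595 (edgeR), and 36.2% of its transcript words occur in pseudogenes or other genes. With members grouped by place, the large subunit of 51 genes had 27 lower and 11 higher with a median of -0.17, and the small subunit of 26 genes had 13 lower and 4 higher with a median of -0.11. Of 45 members that take the place of a bacterial protein in the particle 22 were lower and 10 higher (median -0.10). Of the 32 that do not, counted with Mrps18a and Mrps18b although these are paralogs of a bacterial protein, 18 were lower and 5 higher (median -0.23). Over all genes tested 33.1% were called lower and 33.4% higher, and over expressed protein-coding genes 43.3% and 33.5%. Places and bacterial counterparts were both assigned after the values were seen. No contrast is read from either split, and the differences were not tested.

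The 4 members with the smallest log2 fold changes were Mrpl34, Mrps5, Mrps25 and Mrpl30, and others such as Mrpl39 at -0.04 and Mrps24 at 0.04 lay close to them. Mrpl34, whose promoter is printed above, was at 41.1 ± 2.50 CPM in non-CSC and 41.1 ± 0.989 CPM in CSC. Mrps5 was at 65.8 ± 2.94 and 66.0 ± 5.55 CPM, Mrps25 at 47.8 ± 1.88 and 47.1 ± 1.68 CPM, and Mrpl30 at 65.2 ± 2.79 and 66.5 ± 5.92 CPM. Their log2 fold changes were 0.00, 0.00, -0.02 and 0.03, with standard errors of 0.0468 to 0.0546. With the chromosome offset Mrpl30 was called lower, at -0.18 with an adjusted p of 0.00762 (edgeR). Of the exon bases of Mrps25, 69.8% lie opposite those of Nr2c2. Among all members the spread between replicates was small, with a median coefficient of variation of 4.23% in non-CSC and 4.78% in CSC and a highest value of 14.6%.

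Levels of different members can be set side by side only per transcript length. On the scale of CPM per kilobase of the longest transcript, averaged over the groups, members ran from 4.99 to 84.7, with a median of 25.3 for the large and 18.3 for the small subunit by symbol. The highest of the Mrpl symbols were Mrpl12, Mrpl14 at 74.0 and Mrpl33 at 72.1 CPM per kb, and the lowest were Mrpl47 at 4.99, Mrpl1 at 5.13 and Mrpl32 at 6.33. Among the Mrps symbols the highest were Mrps21 at 81.4, Mrps24 at 54.2 and Mrps18a, a large subunit protein by place, at 48.3, and the lowest were Mrps35 at 5.91, Mrps25 at 7.82 and Mrps26 at 9.43 CPM per kb. The order depends on which transcript is taken: with the median transcript length Mrpl17 went from 20.5 to 201.5 CPM per kb, and only 1 of the top 3 of each kind stayed in the top 3. Of these 12 genes Mrpl47, Mrpl14, Mrps18a and Mrps26 fell and Mrpl33 and Mrps21 rose. Mrpl1, Mrpl32, Mrpl12, Mrps24, Mrps25 and Mrps35 did not pass the test. Mrpl14 fell by 0.17 on the log2 scale, and with the offset for GC content and length its value was -0.06 with an adjusted p of 0.237 (edgeR).

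Summed over members, the level of the set was lower in every CSC library. The large subunit summed to 2139, 2101 and 2075 CPM in non-CSC and to 1931, 1932 and 1839 CPM in CSC, a mean change of -9.71%. The small subunit summed to 1127, 1130 and 1114 CPM in non-CSC and to 1024, 1014 and 951.4 CPM in CSC, a mean change of -11.3%. In neither sum did the groups overlap, and no test was made on the sums. The ratio of large to small was 1.898, 1.859 and 1.863 in non-CSC and 1.886, 1.905 and 1.933 in CSC, so the groups overlapped. These sums and their changes rest on the TMM factors, which were under 1 in non-CSC and above 1 in CSC. As a plain share of all reads, without the factors, the whole set took 0.313% to 0.318% in non-CSC and 0.287% to 0.301% in CSC. The groups were thus closer by this share than by the sums.

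**Figure D3:**
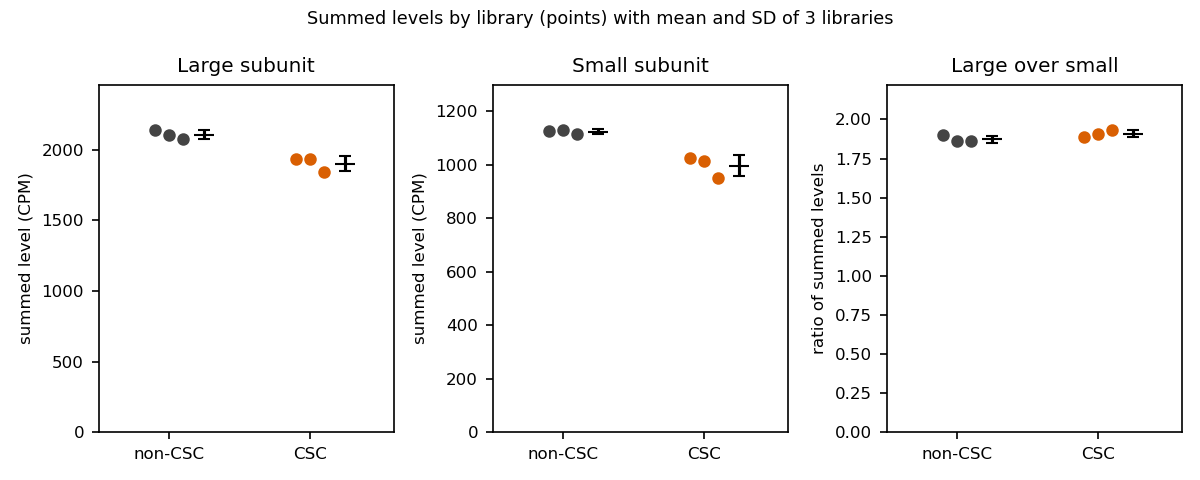
Summed CPM of the large subunit, of the small subunit and the ratio of both in each library (points), with the mean and SD of the 3 libraries of a group beside them; axes start at 0. Both sums are lower in all CSC libraries, while the ratio runs from 1.859 to 1.898 in non-CSC and from 1.886 to 1.933 in CSC.

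Other proteins of the particle are not named Mrp. Of 5 such genes 3 were lower, 1 was higher and Aurkaip1 was not called, with a median log2 fold change of -0.29. Over all genes tested 33.1% were called lower and 33.4% higher, and over expressed protein-coding genes 43.3% and 33.5%. With 5 genes, nothing is read from the count. Gadd45gip1, a large subunit protein also known as CRIF1, was at 71.8, 63.0 and 67.1 CPM in non-CSC and 43.6, 40.8 and 38.7 CPM in CSC, a log2 fold change of -0.71. Dap3, a GTP-binding protein of the small subunit, went from 88.6 ± 0.352 to 60.1 ± 1.40 CPM (log2 fold change -0.56), and Chchd1 from 45.9 ± 5.27 to 37.5 ± 1.34 CPM (log2 fold change -0.29). Ptcd3, an RNA-binding protein of the small subunit, rose from 67.3 ± 3.23 to 84.4 ± 2.36 CPM (log2 fold change 0.33).

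Genes that build or serve the ribosome changed in both directions, in shares that differed between the lists. Of all genes tested 33.1% were called lower and 33.4% higher, and of expressed protein-coding genes 43.3% and 33.5%. Differences from these shares were not tested. Values in parentheses are log2 fold changes. Of 25 tested assembly factors and ribosomal RNA modifying enzymes 11 were lower and 9 higher, with a median of 0.01. The largest changes were falls of Rcc1l (-0.76), Ngrn (-0.61) and the pseudouridine synthases Rpusd3 (-0.48) and Rpusd4 (-0.45). Gtpbp10 was listed at 0 in every library. Of 17 translation factors and partners 9 were lower and 2 higher, with a median of -0.16. The peptide deformylase Pdf rose by 0.62 on the log2 scale, while Slirp (-0.50), the membrane insertase Oxa1l (-0.43) and 2810006K23Rik (-0.37) fell. Of 23 genes of mitochondrial transcription and RNA processing 8 were lower and 7 higher, with a median of -0.04. Fastk (-0.63), Fastkd1 (-0.52) and Grsf1 (-0.50) fell and the transcription factor Tfb2m rose by 0.47 on the log2 scale.

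Of 12 regulators of mitochondrial biogenesis 7 were lower and 1 was higher, with a median of -0.29, beside 33.1% lower and 33.4% higher of all genes tested and 43.3% lower of expressed protein-coding genes. Myc, a transcription factor known to drive ribosome genes, was at 295, 295 and 286 CPM in non-CSC and 173, 151 and 160 CPM in CSC, a log2 fold change of -0.86. All CSC libraries were far under the non-CSC libraries. With log2 fold changes in parentheses, the coactivators Pprc1 (-0.51) and Ppargc1b (-0.48) and the GABP subunit Gabpb1 (-0.39) also fell. Nrf1 (-0.32), Yy1 (-0.31) and Max (-0.27) were lower as well. Gabpa, the DNA-binding subunit of GABP, was at 66.6 ± 0.914 and 65.3 ± 1.19 CPM and did not pass the test. Mycn, named here after its values were seen because it was the only rise, went from 0.992 ± 0.132 to 5.07 ± 0.491 CPM.

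The members' median was not shared by the cytosolic ribosomal protein genes or by the RNAs that the mitochondrial ribosome translates. Proteins were not measured. Of 77 cytosolic ribosomal protein genes 31 were higher and 13 lower, with a median of 0.08, where the 78 members had 15 higher and 40 lower. Of the 13 proteins encoded in mitochondrial DNA 10 were higher (median 0.48) and 0 lower. Their summed level was 2870 to 2950 CPM in non-CSC and 3380 to 3580 CPM in CSC. The 10 include ATP8, with 13 to 25 reads per library, and ND4L, with 14 to 42. COX1, the most abundant of the 13, was at 1479 CPM in non-CSC and 1519 CPM in CSC. It did not pass the test (log2 fold change 0.04, adjusted p = 0.488, edgeR). Beside both lists, 33.4% of all genes tested were called higher and 33.1% lower. None of these differences between lists was tested. The mitochondrial ribosomal RNAs were not analysed here.

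**Figure D4:**
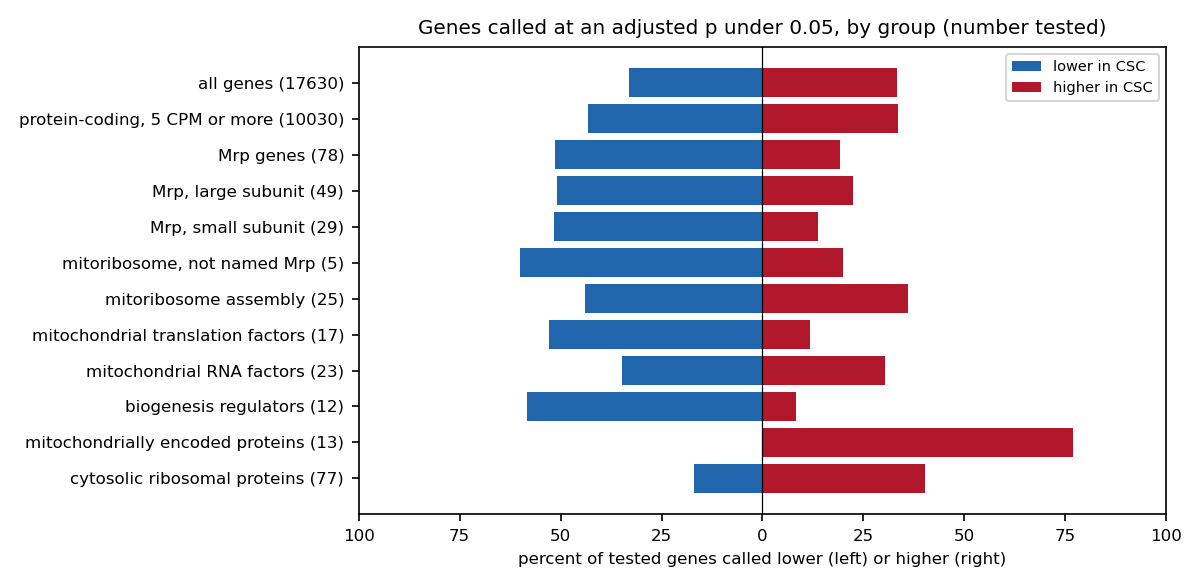
Percent of tested genes called lower (blue, to the left) and higher (red, to the right) in CSC for the members, for other lists and for all genes, with the number tested in parentheses. The bars of the members reach 51.3% lower and 19.2% higher, those of the mitochondrially encoded proteins 76.9% higher and 0 lower.

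The values of the members were set beside those of the genes around them. All 5 members on chromosome 19 and all 3 on chromosome 14 were lower. Of the other genes on these chromosomes 54.1% and 47.0% were called lower, with medians of -0.24 and -0.17. Chromosome 3 holds Mrpl47, Mrps28 and Mrpl24. There 4 of 5 members were lower and 1 higher, and 45.3% of the other genes were lower, with a median of -0.14. On chromosome 17 and chromosome 11, 6 of 8 and 7 of 11 members were lower. The other genes there had medians of 0.04 and 0.05, with 28.8% and 29.5% called lower. Each member was then set beside up to 15 tested genes on either side. The neighbours of Mrpl47 had a median log2 fold change of -0.37 and those of Mrps28 of -0.48, with 13 neighbours lower and 2 higher. The neighbours of Mrpl38 (0.09), Mrpl58 (0.19) and Mrpl23 (0.14) had medians above 0. Of the 78 members 56 lay below the median of their neighbours, where 50% of all genes do, and the median of member minus neighbours was -0.17. The set was proposed with this comparison known, so nothing is read from that gap. Of the 39 members whose neighbours' median was under that of all genes 23 were lower and 6 higher, and of the other 39, 17 were lower and 9 higher. The correlation between members and neighbours was r = 0.35 over 78 members, which share neighbours and libraries.

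Many members start close to a gene on the other strand. A gene starts within 1000 bases of the start of 33 members, head to head or overlapping, and was tested for 30. In 6 of the 30 the member and its partner were both lower, in 5 both were higher, in 6 the calls were opposite and in 13 at least 1 gene was not called. Among the partners 2 are themselves members and are counted from both sides. Of all genes tested 33.1% were called lower and 33.4% higher. Such pairs were not counted over all genes, so nothing is read from these counts or from the pairs named next. The starts of Mrps12 and Sars2, the mitochondrial seryl-tRNA synthetase, are 172 bases apart, and the printed sequence lies between them. Sars2 rose from 8.19 ± 0.821 to 11.9 ± 1.14 CPM, a log2 fold change of 0.54 beside 0.56 for Mrps12. Helq, whose start is 29 bases from that of Mrps18c, rose by 0.39 on the log2 scale beside 0.44 for Mrps18c. Ndufb5, a complex I subunit whose start overlaps that of Mrpl47, fell from 44.2 ± 2.41 to 26.8 ± 1.67 CPM, a log2 fold change of -0.72 beside -1.11 for Mrpl47. Mrpl43 and the mitochondrial DNA helicase Twnk went apart, at -0.37 and 0.21. Of the exon bases of Mrpl43 33.4% overlap Twnk on the other strand, and of those of Mrpl47 24.2% overlap Actl6a and Ndufb5. With the strand setting unknown, reads there cannot be assigned, for either pair. Mrpl46 and Mrps11, which start against each other and are both members, were at -0.13 and 0.13, and neither passed the test.

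**Figure D5:**
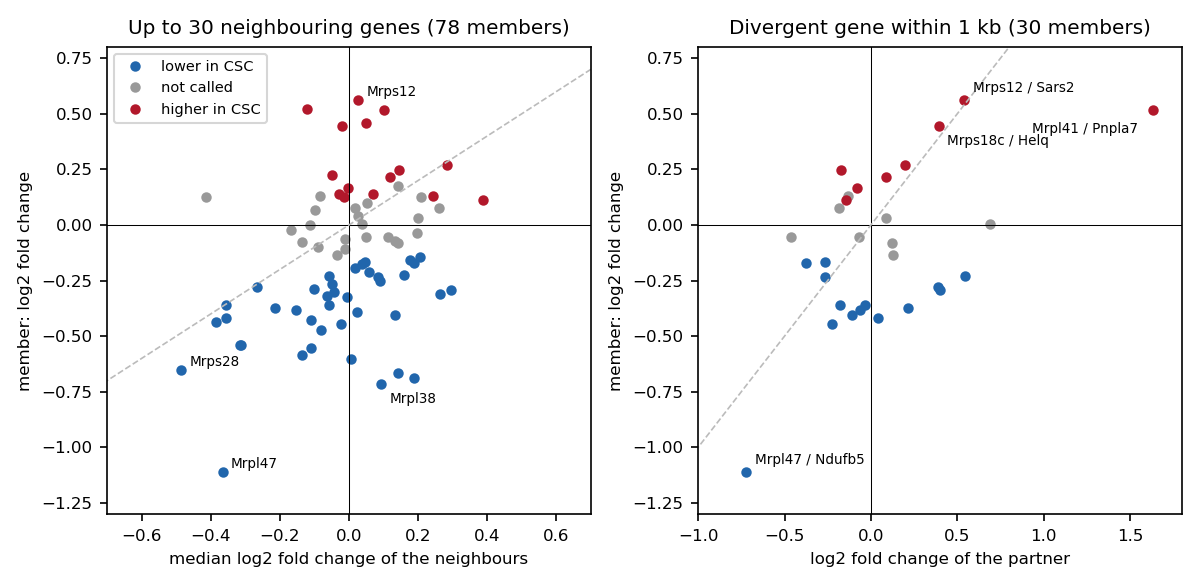
Log2 fold change of each member against the median of its neighbours (left, 78 members) and against the gene that starts within 1 kb on the other strand (right, 30 members). Blue is lower in CSC, red higher and grey not called, and the dashed line marks equal values. The 40 blue points on the left lie below it, as 94.0% of all genes called lower lie below the median of their neighbours.

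Short motif words were counted in the RefSeq promoter windows, from 250 bases before to 50 bases after the start, on either strand, for the 66 members with a single window; 3 members had several and 9 had none. The ETS core CCGGAAG was in 24 of 66 windows (36.4%), beside 21.8% of protein-coding genes with a mean of at least 5 CPM and 9.12% of all 22862 windows. It was in 14 of 33 members called lower, in 8 of 13 called higher and in 2 of 20 not called. The YY1 core AAGATGGC was in 12 of 66 (18.2%, beside 5.76% of expressed protein-coding genes and 2.94% of all windows), and the NRF1 core GCGCATGC in 8 of 66 (12.1%, beside 6.26% and 2.77%). The E-box CACGTG, the word bound by Myc and its partners, was in 4 of 66 (6.06%, beside 11.0% and 7.12%). None of the 4 words contains another, and 37 of 66 windows held at least 1 of them.

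The printed stretches show how these words lie. Mrpl43 holds the ETS core at bases 60 and 104 of its 115 bases, Mrps18a at base 225 of 232 and Mrpl34 at base 214 of 250, counted from the 5′ end of the stretch. The word thus stood in promoters of genes that fell and of a gene that did not pass the test. Mrpl10 holds the NRF1 core on the reverse strand at base 41 of the 152 bases toward Lrrc46. The Mrps12 stretch holds none of the 4 words; the ETS and YY1 cores of its window lie outside the stretch. It holds 4 CCAAT boxes, and windows with at least that many make up 1.13% of all and 2.40% of expressed protein-coding genes. At least 1 CCAAT or its reverse complement was in 9 of 13 members called higher, in 10 of 33 called lower and in 6 of 20 not called. It was in 40.2% of expressed protein-coding genes and 38.2% of all windows. The word was picked after the Mrps12 sequence had been seen, and Mrps12 is among the 9. Nothing is therefore read from these shares, and their difference was not tested. A word in a window is a match of letters and not a bound site.

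Some members share sequence or exons with other genes, so the reads assigned to them are uncertain. The largest shares of exon bases covered by other genes were in Mrpl53 (88.0%, with Gm42688, whose transcripts hold all of its words), Mrps34 (77.8%, with Mapk8ip3 and Nme3) and Mrps25 (69.8%). More than 20% of exon bases overlapped another gene in 10 members, and more than 20% of transcript words were shared in 10 members. A further 6 Mrp pseudogene symbols, 4 of them tested, fall outside the naming rule and were not counted as members.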

How the data were processed

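RNA from EO771 cells was sequenced as 6 libraries, 3 CSC and 3 non-CSC, grouped by their titles, from total RNA extracted with Trizol and a NEBNext Ultra II kit per the labels. The authors deposited a single table of unnormalized counts with a row for each gene symbol; GRCm38 is the build named in the submitters' processing notes. Its aligner, counter, annotation and strand setting are not stated in those sources. Totals were 27099879 to 35971131 counts per library, and replicates differed by more than sampling noise, with a chi-square per degree of freedom of 3.21 to 7.30.

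From the deposited counts, edgeR 4.0.16 (filterByExpr, TMM factors of 0.974 to 1.03, robust quasi-likelihood test, Benjamini-Hochberg threshold of 0.05 over 17630 genes) compared CSC with non-CSC. The common coefficient of biological variation was 4.11%. Standard errors were derived from the estimate and its F statistic. The fit was tested on simulated data. Positions came from RefSeq, and lengths, GC content and overlaps (exon bases, and 50-base words of the longest transcript) from GENCODE M21. DESeq2 1.42.0 and limma 3.58.1 were alternatives, as were other scalings, filters, offsets and left-out libraries.

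The members and lists were chosen with earlier results of these data known, and the places of members and their bacterial counterparts after their values were seen. Named are the 8 largest falls and rises that passed the test at a mean of 5 CPM or more, the 4 smallest changes, the 3 highest and lowest per kilobase in each subunit, the Mrps18 paralogs, Mrps30 and Mrps36, and up to 4 members of each list; others, such as stalk, tunnel and marker genes, were added after their values were seen. A planned comparison of the Mrps18 protein sequences was not made.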

Additional observations from a re-analysis of the deposited data

How the results depend on the processing

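Of the 55 called members 41 kept their call in all 18 other fits, and none of the 55 was called in the opposite direction in any. Mrpl30, not called at 0.03, was called lower with the chromosome offset (-0.179, adjusted p = 0.00762, edgeR). With library-size and upper-quartile scaling the median of the members was -0.085 and -0.0921, of the large subunit -0.0926 and -0.0997, of the small subunit -0.0774 and -0.0844, and 9 small subunit members were higher under each; these scalings put the median of all genes at 0.0771 and 0.0699. DESeq2 and the fit without a filter each called 7 large subunit members higher. With the GC content and length offset the medians were -0.107 for the members and -0.1 for the large subunit. With the chromosome offset the small subunit median was -0.221 and the large minus small difference 0.0825. Asking for 1.2-fold left 6 members higher, 3 of them of the large subunit, and asking for 20 CPM gave a median of -0.213. The cause of these shifts was not tested.

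Leaving out 1 library at a time gave 9 to 16 higher and 37 to 42 lower members, medians of -0.199 to -0.129, 5 to 11 higher and 22 to 27 lower in the large subunit with medians of -0.2 to -0.122, 4 to 5 higher in the small subunit with medians of -0.176 to -0.121, and a large minus small difference of -0.0587 to 0.0539. The replicate block, for numbers that do not pair the samples (correlations of deviations -0.0112, -0.0257 and -0.0216 for equal numbers), gave 42 lower and 15 higher members with a median of -0.15; with the GC content and length offset it gave medians of -0.107 and, for the large subunit, -0.101. Depth limited the members little, the lowest count being 166. Counting error alone does not cover reads that are not independent molecules.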
